A study of Homo sapiens with 12 samples.

Results

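The genes FAM114A1, MRC2 and TMC8 are described here in HCT116 cells, a human colon carcinoma line, in which the prefoldin subunits PFDN2 or PFDN5 were targeted with siRNA. They are 3 of the 58051 genes in the count tables, and were found there by Ensembl identifier (ENSG00000197712, ENSG00000011028 and ENSG00000167895). They were chosen by their low counts in siPFDN2 relative to siControl in these same libraries. Their difference between siPFDN2 and siControl is therefore given as a description, without a test. The siControl libraries took part in that choice too, so tests of the 3 genes that use them are not independent of it. Total RNA was sequenced in 12 libraries, 2 for each of 3 siRNAs (siControl, siPFDN2 and siPFDN5) in 2 serum states. All cells, siControl included, received 1 siRNA by Oligofectamine transfection for 24 h and were then deprived of serum for 48 h. They were collected either at that point (before serum) or 90 min after serum was added back (after serum). Only 1 siRNA sequence was used per target, and the labels do not say whether the 2 replicates were separate cultures, so p-values measure the spread between these libraries, which may be technical.

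Prefoldin is a cytosolic co-chaperone that binds newly made actin and tubulin chains and passes them to the chaperonin CCT. PFDN2 is one of its beta-type subunits and PFDN5 one of its alpha-type subunits. MRC2, also called Endo180 or uPARAP, is a transmembrane receptor of the mannose receptor family that takes up collagen for breakdown in lysosomes and associates with the urokinase receptor. FAM114A1 is a cytoplasmic protein whose family binds the Golgi GTPase RAB2. TMC8, also called EVER2, is a membrane protein that works with its neighbour gene's product TMC6 (EVER1) and with CIB1, and its loss causes epidermodysplasia verruciformis, a susceptibility of the skin to papillomaviruses. The label of genes lowered by PFDN2 siRNA describes the exon counts of FAM114A1 and MRC2. The same libraries made the choice, so this is not a separate result. The label did not describe the exon counts of TMC8 before serum. There the lower total of the gene came from counts outside its annotated exons and was seen with both siRNAs. After serum both kinds of count were lower in siPFDN2.

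Exon counts totalled between 46158398 and 114454288 per library. Values below are exon counts per 1000000 counts of the library (CPM) after scaling of libraries by TMM, which sets library factors so that most genes are unchanged. Before serum PFDN2 had 11.1 and 11.1 CPM under siControl, and under siPFDN2 6.52 and 6.66 CPM. After serum these were 20.3 and 17 CPM against 7.96 and 9.42 CPM. Before serum PFDN5 had 94.1 and 84.3 CPM under siControl, and under siPFDN5 52.2 and 55.5 CPM, but after serum it had 87.3 and 90.1 against 78.0 and 79.6 CPM. The targeted gene was thus only slightly lower in the libraries labelled siPFDN5 after serum. The other target, PFDN2, was higher under siPFDN5 than under siControl in both serum states. The median log2 fold change of the 2 targets in siPFDN5 was 0.18 before serum and 0.21 after it, although PFDN5 was lower. Replicate 2 of siPFDN2 before serum stood apart from all other libraries. Its counts relative to the gene's mean rose with GC content (Spearman's rho 0.738 across 24676 genes, which are not independent replicates), against -0.315 to 0.0742 in the other libraries. It and its replicate differed with an SD of 0.716 in log2 CPM, against 0.106 to 0.183 within the other groups. Each result is therefore given with all libraries first, and then with the GC trend of every library removed or without that library. All 6 epithelial markers were expressed (EPCAM, CDH1, KRT8, KRT18, KRT19 and CDX2; 2320 to 3320 CPM summed), whereas 1 of 6 fibroblast markers (COL1A1) and 2 of 6 leukocyte markers (CD68 and LCP1) reached 1 CPM in any library.

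FAM114A1 lies on chromosome 4, at 38867677 to 38945739 on the plus strand of GRCh38. Only the microRNA gene MIR574 overlaps it, and the 2 share 0 exonic bases. Before serum it was at 48.7 and 52.0 CPM in siControl, 31.4 and 25.6 CPM in siPFDN2, and 38.2 and 37.6 CPM in siPFDN5. After serum it was at 44.2 and 48.6 CPM in siControl, 35.0 and 34.5 CPM in siPFDN2, and 37.4 and 35.2 CPM in siPFDN5. Every one of the 8 knockdown libraries lay below every one of the 4 siControl libraries, a pattern held by 0.558% of the 24889 genes tested, and the choice of the gene used the siControl and siPFDN2 values. The order of the groups before serum was siControl, siPFDN5 and siPFDN2, with no overlap, and after serum the siPFDN2 and siPFDN5 libraries together ranged from 34.5 to 37.4 CPM.

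Relative to siControl, FAM114A1 in siPFDN2 had a log2 fold change of -0.82 (SE 0.14) before serum and -0.42 (SE 0.14) after it. These correspond to mean levels of 56.6% and 75.0% of siControl (n = 2 libraries a group). Removing the GC trend moved the value before serum to -0.70, because replicate 2 rose from 25.6 to 30.3 CPM and then lay beside replicate 1, at 30.8 CPM. In siPFDN5 the log2 fold change was -0.41 (SE 0.14) before serum and -0.35 (SE 0.14) after it. The mean levels in siPFDN5 were 75.3% and 78.3% of siControl. Neither passed the quasi-likelihood test of edgeR, adjusted by Benjamini-Hochberg over all 24889 genes (adjusted p = 0.43 and 0.224). In that fit 0 genes, or 0%, were called before serum for siPFDN5 against siControl, with 2265 at an unadjusted p under 0.05 and 109 called by DESeq2. After serum 1 gene, or 0.00402%, was called, against 888 by DESeq2. In each comparison FAM114A1 was called in 6 of the alternative settings and not called in 16, DESeq2 included. FAM114A1 was lower in siPFDN5 in both comparisons once the GC trend was removed (log2 fold change -0.42, adjusted p = 0.0246, and -0.36, adjusted p = 0.0152, by edgeR). The background was then 1.61% of genes called before serum and 13.3% after it. Without replicate 2 of siPFDN2 before serum the adjusted p values were 0.00225 and 0.00249, with 10.8% and 26.5% of all genes called. Leaving out replicate 1 of that pair in its place gave 0.00245 and 0.00279. The siPFDN5 comparisons share the siControl libraries with the comparison by which the gene was picked.

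**Figure D1:**
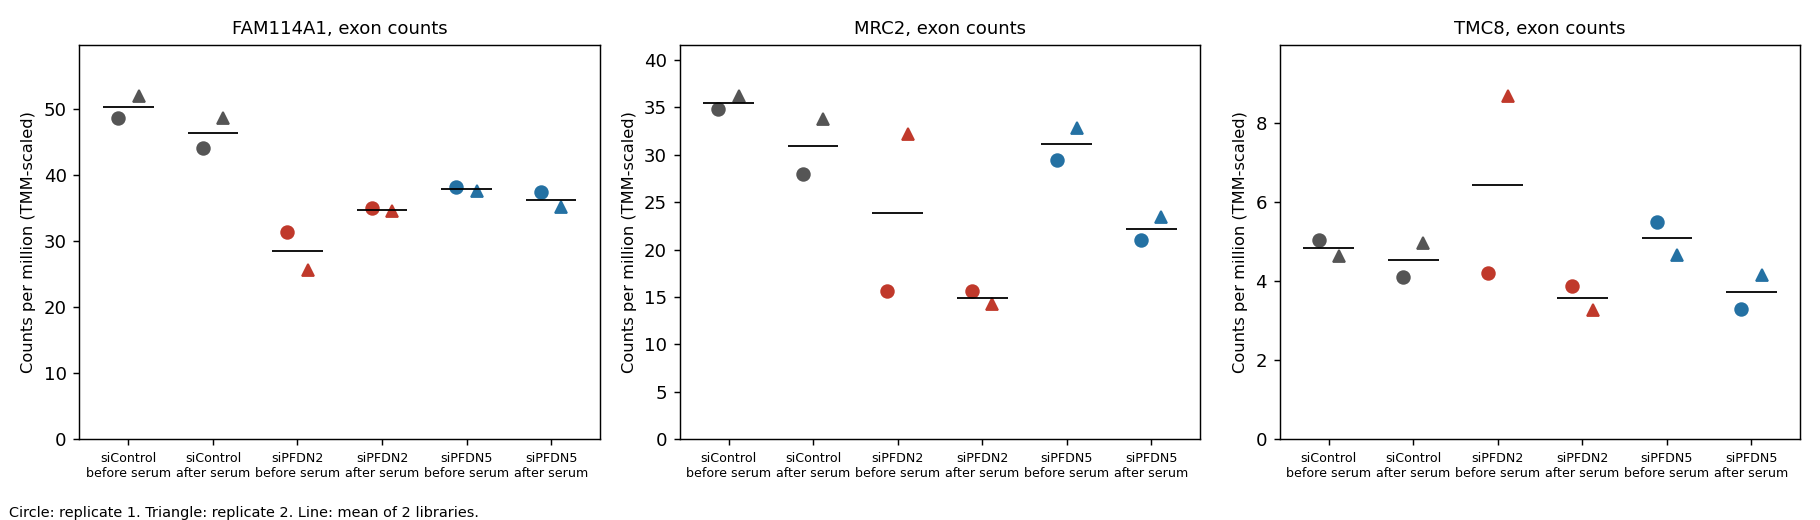
Exon CPM (y axis, linear, from 0) of FAM114A1, MRC2 and TMC8 in the 6 groups (x axis); circles are replicate 1, triangles replicate 2 and lines the mean of the 2 libraries. FAM114A1 lies at 25.6 to 38.2 CPM in the 8 knockdown libraries and at 44.2 to 52.0 CPM in siControl, whereas TMC8 shows 1 library, replicate 2 of siPFDN2 before serum, above all the others.

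The sequences of the siRNAs were compared with the transcripts of the 3 genes, since a short interfering RNA can also pair with other transcripts through its seed, bases 2 to 8 of the antisense strand. The antisense strands were derived from the labelled sense strands and are shown here with the seed in capitals.
siPFDN2 antisense: uGUAUCGAucacuaggcug
siPFDN5 antisense: aUCCUCAGcugucuucucu
siControl antisense: uCGAAGUAuuccgcguacg
The complement of the siPFDN2 seed, TCGATAC, was searched on the sense strand of GENCODE transcripts. The 3′ untranslated region of FAM114A1 (transcript FAM114A1-201, exon 15) held it once, at chr4:38945391-38945397, with an A after it that extends the match to 8 bases. The place is printed below with the matched bases in capitals, beside the intended place in the coding sequence of PFDN2.
FAM114A1: cagctgcatgtTCGATACAatacacctgct
PFDN2: cagcctagtgaTCGATACActgaaggaggt
The 8-base match was present in 0.337% of the longest 3′ untranslated regions of 14850 tested genes (50 genes), and the 7-base match in 0.983% (146 genes). None of the 7 annotated transcripts of MRC2 and none of the 9 of TMC8 held the 7-base match of any of the 3 siRNAs. Genes with the 7-base match to siPFDN2 had a median log2 fold change of -0.21 in siPFDN2 before serum and -0.14 after it, against -0.01 and 0.01 over all genes with an annotated region. With the GC trend removed these medians were -0.11 and -0.14. In siPFDN5 the same genes had medians of -0.03 before serum and -0.07 after it, against -0.03 and 0.02 over all genes, so after serum they lay below all genes with both siRNAs.

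FAM114A1 also held 2 matches of 8 bases to the siPFDN5 seed, both in its coding sequence in exon 3, where the complement of the seed is CTGAGGA. They are printed with the matched bases in capitals.
first match: tgattctttacCTGAGGATgcagaagtgca
second match: tggagacgtgaCTGAGGATacacttgctga
Of the longest transcripts of all tested genes, 8.3% held the 8-base match and 34.4% the 7-base match. Genes with the 8-base match had median log2 fold changes in siPFDN5 of -0.03 before serum and -0.08 after it, against -0.01 and -0.02 over all genes. In siPFDN2 the same genes had medians of 0.02 before serum and -0.05 after it, against 0.0 and -0.01 over all genes. A match describes the letters only, and its part in the level of FAM114A1 was not tested.

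FAM114A1 reads came mainly from 1 isoform. In the estimated counts per transcript, FAM114A1-201, which carries the match to siPFDN2, made up 75.1% to 80.3% of the gene in every library. The shorter FAM114A1-206 made up 14% to 18.9%. FAM114A1-201 averaged 47.9 ± 3.04 estimated CPM (SD, n = 2) in siControl before serum, 26.6 ± 4.6 in siPFDN2 and 35.9 ± 0.495 in siPFDN5. FAM114A1-206 averaged 8.74 ± 0.099, 5.79 ± 0.856 and 7.98 ± 1.32 in the same groups. Both isoforms were therefore lower in siPFDN2 before serum. The share of FAM114A1-206 was 14% to 14.7% in siControl and 16.6% to 16.9% in siPFDN2 there, but it was 15.3% to 18.9% in siPFDN5, and after serum siPFDN2 (14.4% to 16.7%) overlapped siControl (14% to 16.5%). Counts outside the exons of FAM114A1 were few, at 2.15 to 9.09 CPM. Before serum they were at 5.54 and 5.58 CPM in siControl, 3.82 and 4.27 CPM in siPFDN2, and 6.89 and 6.06 CPM in siPFDN5. After serum they were at 9.09 and 4.40 CPM in siControl, 3.85 and 3.26 CPM in siPFDN2, and 2.15 and 2.22 CPM in siPFDN5. In siPFDN2 they were thus lower than in siControl in both serum states, like the exon counts. In siPFDN5 they were higher than siControl before serum and lower after it. The share of counts outside exons moved the same way over all genes: its median over tested genes was 13.8% and 12.2% in siPFDN5 before serum and 6.15% and 6.36% after it, against 9.5% to 15.5% in siControl. In siPFDN2 this median was 10.1% and 12.5% before serum and 9.78% and 8.69% after it. The part of this share in the values of single genes was not tested, and how many other genes lay below siControl outside exons was not counted.

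MRC2 lies on chromosome 17, at 62627401 to 62693597 on the plus strand of GRCh38. The minus-strand genes AC080038.1 and AC080038.3 share 190 and 676 of its exonic bases (2.77% and 9.85%), and since the counting used no strand option, their reads could not be told apart from those of MRC2 in these bases. Before serum MRC2 was at 34.8 and 36.2 CPM in siControl, 15.6 and 32.2 CPM in siPFDN2, and 29.4 and 32.8 CPM in siPFDN5. After serum it was at 28.0 and 33.8 CPM in siControl, 15.6 and 14.2 CPM in siPFDN2, and 21.0 and 23.4 CPM in siPFDN5. Of the 4 siPFDN2 libraries 3 lay between 14.2 and 15.6 CPM, and the exception was replicate 2 before serum, close to the siControl level. In each of the 4 contrasts of a knockdown with siControl both knockdown libraries lay below both siControl libraries, as for FAM114A1, which 1.27% of all tested genes also showed. Taken singly, this position was held by 16.1% of genes in siPFDN2 before serum and 25.6% after it, and by 31.5% and 32.9% in siPFDN5.

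The MRC2 transcript is rich in GC (63.7%, above 94.6% of tested genes), and in the library that stood apart the GC trend at that composition was 0.86 on the log2 scale. With the trend removed, that library was at 17.8 CPM, and the 4 siPFDN2 libraries ranged from 15.6 to 17.8 CPM against 29.4 to 37.1 CPM in siControl and 23.8 to 34.1 CPM in siPFDN5. The log2 fold change of siPFDN2 against siControl was -0.57 (SE 0.27) before serum with all counts as they were, -1.05 with the trend removed and -1.19 without that library. After serum it was -1.05 (SE 0.27), and -0.97 with the trend removed. MRC2 in siPFDN2 after serum was at 48.2% of the mean of siControl.

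In siPFDN5, MRC2 had a log2 fold change of -0.19 (SE 0.27, adjusted p = 0.891) before serum and -0.48 (SE 0.27, adjusted p = 0.388) after it, by edgeR's quasi-likelihood test. With the GC trend removed the first was -0.10 (adjusted p = 0.627) and the second -0.40 (adjusted p = 0.0268, with 13.3% of genes called). Without replicate 2 of siPFDN2 before serum the second had an adjusted p of 0.00146, with 26.5% of genes called, and without replicate 1 an adjusted p of 0.00158. MRC2 was thus called lower in the libraries labelled siPFDN5 after serum in these fits. In the fit of all 12 libraries as counted it had a negative value too, but was not called. This comparison was called in 6 of the alternative settings and not called in 16. In those libraries PFDN5 itself was close to siControl. Between the 2 knockdowns MRC2 stood higher in siPFDN5 by 0.57 (SE 0.27) on the log2 scale after serum, a comparison that is given without a test because it uses the siPFDN2 libraries that picked the gene.

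**Figure D2:**
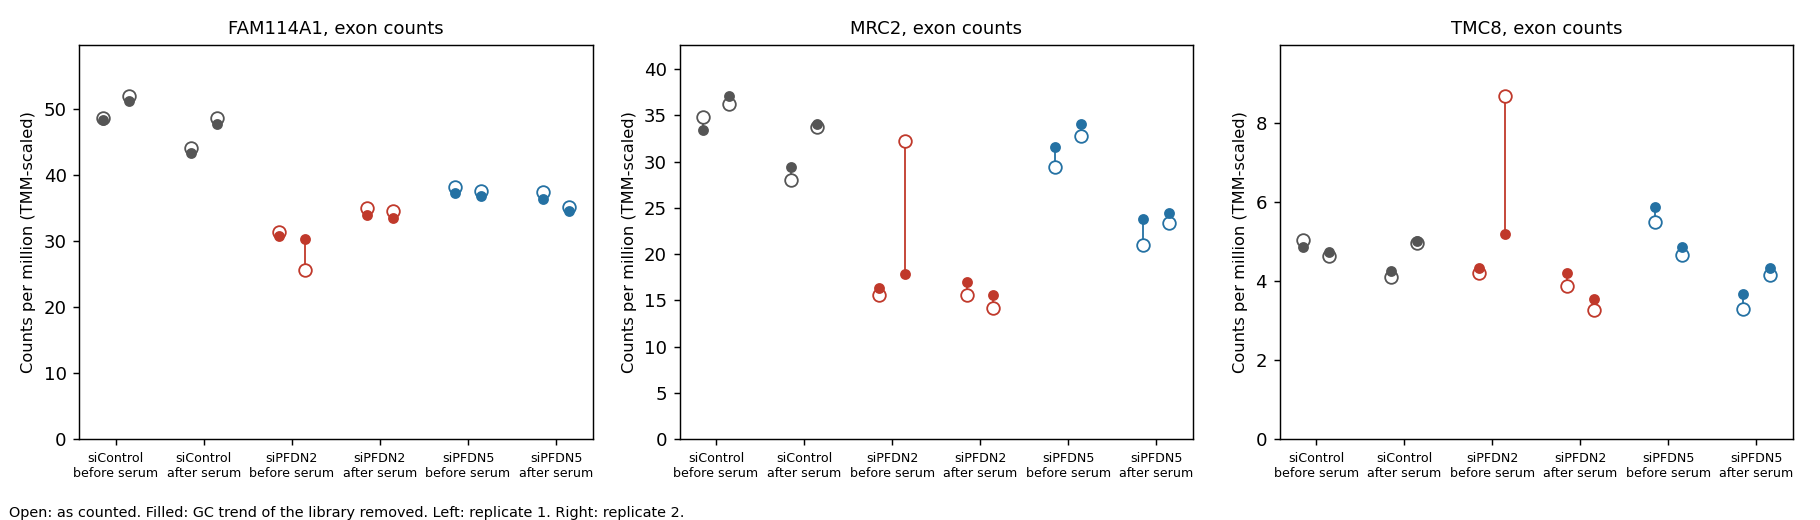
Exon CPM (y axis, linear, from 0) of the 3 genes by group (x axis), as counted (open) and with the GC trend of each library removed (filled), joined by a line; replicate 1 is on the left and replicate 2 on the right of each group. Replicate 2 of siPFDN2 before serum moves from 32.2 to 17.8 CPM for MRC2 and from 8.68 to 5.18 CPM for TMC8, and the other libraries move little.

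One isoform, MRC2-201, carried 81.0% to 93.5% of the estimated counts of MRC2 in all libraries. It averaged 34.5 ± 5.52 estimated CPM (SD, n = 2) in siControl after serum, 16.6 ± 0.99 in siPFDN2 and 24.4 ± 2.97 in siPFDN5. Counts outside the exons of MRC2 were low, at 0.896 to 3.28 CPM. Before serum they were at 2.57 and 2.18 CPM in siControl and 1.61 and 2.63 CPM in siPFDN2, which overlap. In siPFDN5 before serum they were at 3.20 and 3.28 CPM, above siControl, while the exon counts lay below it. After serum they were at 2.77 and 1.44 CPM in siControl, 0.896 and 1.03 CPM in siPFDN2, and 0.993 and 0.898 CPM in siPFDN5. Both knockdowns were then lower than siControl and overlapped each other. They were at 45.8% of siControl in siPFDN2 and 44.9% in siPFDN5. The adjacent gene TLK2 was also lower outside exons after serum, at 67.4% and 50.8%. How many other genes lay so was not counted.

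TMC8 lies on chromosome 17, at 78130770 to 78142968 on the plus strand of GRCh38. It overlaps TMC6 on the minus strand, with 231 shared exonic bases (4.23% of its own), and C17orf99 follows 3384 bases after its end. It was the lowest of the 3 genes per length, at 0.75 to 0.922 exon CPM per kb in siControl, against 4.09 to 5.28 for MRC2 and 9.06 to 10.7 for FAM114A1. Before serum TMC8 was at 5.03 and 4.64 exon CPM in siControl, 4.19 and 8.68 CPM in siPFDN2, and 5.50 and 4.66 CPM in siPFDN5. After serum it was at 4.09 and 4.95 CPM in siControl, 3.87 and 3.26 CPM in siPFDN2, and 3.30 and 4.16 CPM in siPFDN5. Only the siPFDN2 group after serum lay below siControl without overlap, a position that 25.6% of all tested genes held.

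The log2 fold change of TMC8 exon counts was 0.41 (SE 0.29) for siPFDN2 before serum and -0.35 (SE 0.30) after it. TMC8 is also GC-rich (61.3%), and with the GC trend removed the value before serum was -0.01, while without replicate 2 of siPFDN2 it was -0.21. In siPFDN5 it was 0.07 (SE 0.29, adjusted p = 0.971) before serum and -0.28 (SE 0.29, adjusted p = 0.661) after it, by edgeR. TMC8 passed the test in siPFDN5 against siControl neither with the GC trend removed (adjusted p = 0.618 and 0.37) nor in any other setting tried. The overlapping TMC6, like TMC8, was highest in the library that stood apart, with 53.6 and 54.3 CPM in siControl before serum, 43.6 and 86.1 CPM in siPFDN2, and 48.8 and 47.3 CPM in siPFDN5. Unlike TMC8, it lay below siControl without overlap in siPFDN5 before serum.

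Counts over the whole TMC8 gene body gave another picture. Before serum they were at 12.6 and 12.3 CPM in siControl, 6.79 and 10.4 CPM in siPFDN2, and 8.42 and 7.42 CPM in siPFDN5. Most of this difference lay outside the exons, where TMC8 had 10.5 and 10.5 CPM in siControl before serum, 4.09 and 4.36 CPM in siPFDN2, and 5.28 and 4.68 CPM in siPFDN5. The knockdowns were thus at 40.3% and 47.5% of siControl there, with replicate values close together, also in the library that stood apart. After serum the counts outside exons were at 6.58 and 6.67 CPM in siControl, 5.07 and 5.36 CPM in siPFDN2, and 5.58 and 4.11 CPM in siPFDN5. The siControl level was lower than before serum, and both knockdowns still lay below it, at 78.7% and 73.1%. The overlapping TMC6 was also lower outside exons after serum, at 81.7% of siControl in siPFDN2 and 62.3% in siPFDN5. Over all tested genes the median share outside exons was then 9.78% and 8.69% in siPFDN2 and 6.15% and 6.36% in siPFDN5. In siControl it was 15.5% and 9.5%. How many other genes lay below siControl outside exons was not counted. Of the gene-body counts of TMC8, 57.4% to 69.3% lay outside exons in siControl, against a median of 9.5% to 15.5% over all tested genes.

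The next gene downstream, C17orf99, showed nearly the same values outside its exons. They were 9.92 and 10.1 CPM in siControl before serum, 3.79 and 3.59 CPM in siPFDN2, and 4.89 and 4.48 CPM in siPFDN5. After serum they were 6.46 and 6.41 CPM in siControl, 4.85 and 5.40 CPM in siPFDN2, and 5.53 and 4.04 CPM in siPFDN5. Its exons held 0.0647 CPM at most as a group mean. In both genes siControl before serum was highest, siControl after serum next and siPFDN2 before serum lowest. Per kb outside exons, TMC8 had 1.56 CPM and C17orf99 0.587 CPM in siControl before serum. Whether the counts outside exons in TMC8 come from its own unspliced RNA or from another transcript of this region was not tested.

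**Figure D3:**
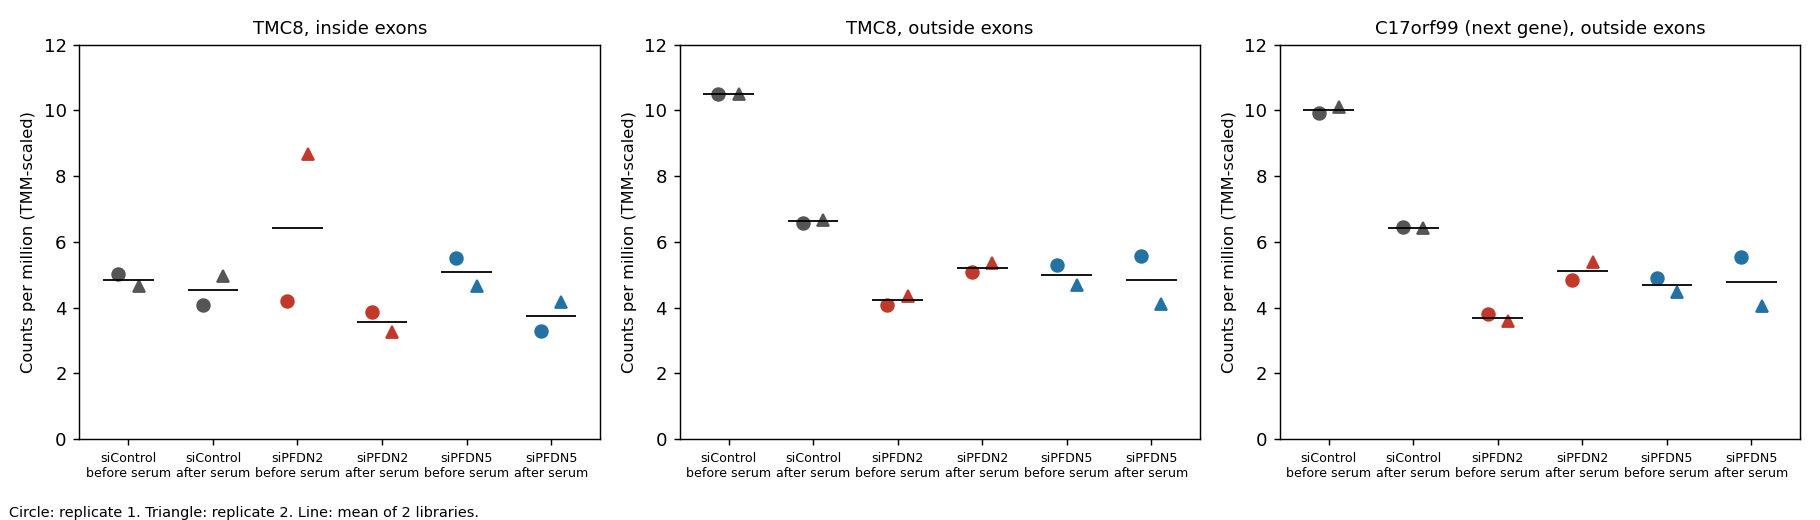
CPM (y axis, linear, from 0) inside the exons of TMC8, outside its exons, and outside the exons of the next gene C17orf99, by group (x axis); circles are replicate 1, triangles replicate 2 and lines the mean of the 2 libraries. Outside exons both genes are highest in siControl before serum (10.5 and 10.0 CPM on average) and lowest in siPFDN2 before serum (4.22 and 3.69 CPM), an order that the exon counts of TMC8 do not share.

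TMC8 was divided over more isoforms than the other genes. TMC8-202 made up 44.7% to 80.7% of its estimated counts and the longer TMC8-201 4.41% to 41.4%. The 2 siPFDN2 libraries after serum held both the lowest and the highest share of TMC8-201, so the isoform shares of siPFDN2 did not stand apart from those of siControl. In siPFDN5 before serum TMC8-201 made up 9.99% to 12.8%, below the 20.2% to 28.6% of siControl. These shares rest on 25.75 and 31.05 estimated counts in siPFDN5 and 100.13 and 71.4 in siControl. How many other transcripts lay so was not counted.

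The serum response, after serum against before it, was the second question of the design. In siControl none of the 3 genes passed edgeR's test, with log2 fold changes of -0.20 (SE 0.27, adjusted p = 0.951) for MRC2, -0.12 (SE 0.14, adjusted p = 0.93) for FAM114A1 and -0.09 (SE 0.29, adjusted p = 0.996) for TMC8. At the same threshold 2.13% of all genes were called in siControl, 2.53% in siPFDN2 and 4.22% in siPFDN5. The responses of the members in siPFDN2 are given without a test, because the siPFDN2 libraries picked the genes. The siControl libraries entered that choice as well, which limits the tests of the siControl response and of differences from it. MRC2 had a response of -0.68 (SE 0.27) in siPFDN2, which was -0.07 with the GC trend removed. In siPFDN5 it had -0.49 (SE 0.27, adjusted p = 0.314), and -0.44 (adjusted p = 0.0101, with 22.1% of genes called) with the trend removed. MRC2 thus fell after serum in siPFDN5 in that fit, where 29.4 and 32.8 CPM were followed by 21.0 and 23.4 CPM. This response was called in 6 of the alternative settings and not called in 16. The difference of this response from that of siControl was -0.29 (SE 0.38, adjusted p = 0.802), and was not called with the trend removed either (adjusted p = 0.21).

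FAM114A1 had a serum response of 0.29 (SE 0.14) in siPFDN2 and -0.06 (SE 0.14, adjusted p = 0.826) in siPFDN5. With the trend removed the first was 0.14. TMC8 had -0.86 (SE 0.30) in siPFDN2 and -0.44 (SE 0.30, adjusted p = 0.41) in siPFDN5. The first was -0.31 with the trend removed. The second was -0.43 without replicate 2 of siPFDN2 before serum (adjusted p = 0.0324, with 32.8% of genes called) and without replicate 1 (adjusted p = 0.0321). No member's serum response in siPFDN5 differed from that in siControl by edgeR's test (adjusted p = 0.802, 0.935 and 0.778 for MRC2, FAM114A1 and TMC8), where 0% of all genes were called, 3231 had an unadjusted p under 0.05 and DESeq2 called 213.

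**Figure D4:**
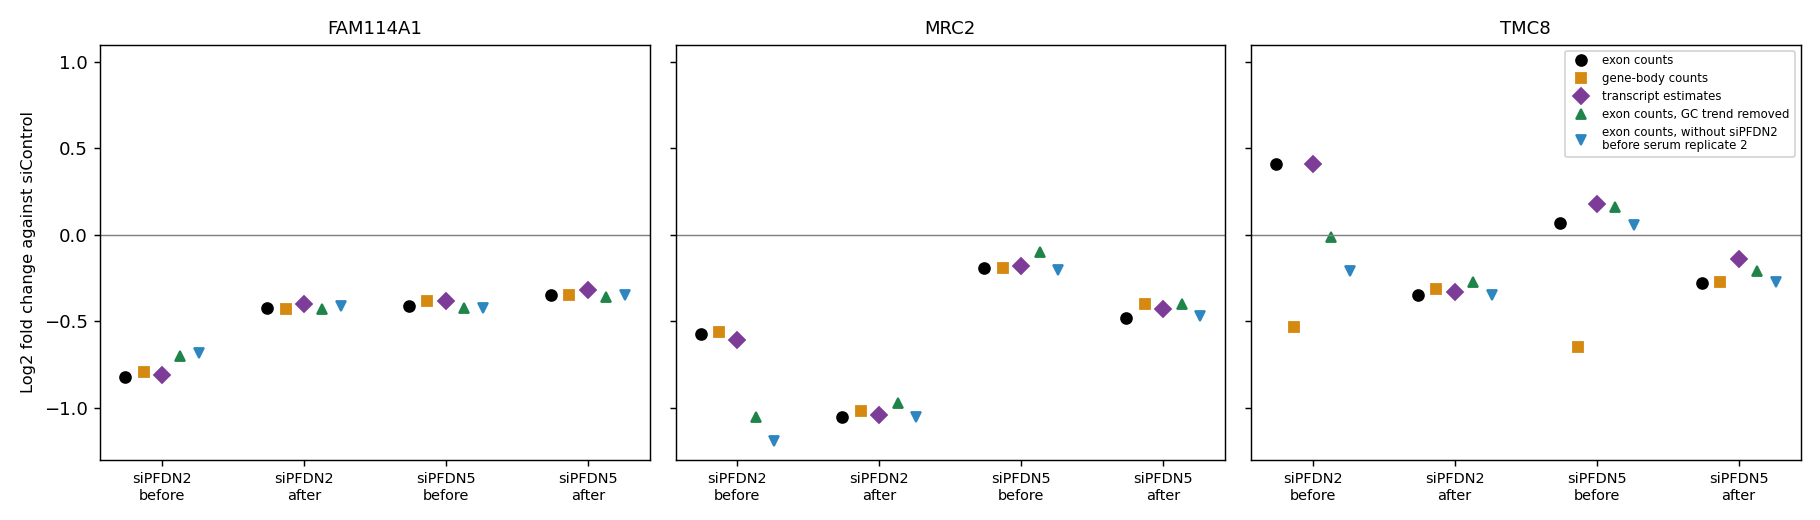
Log2 fold change against siControl (y axis) of each gene for siPFDN2 and siPFDN5 before and after serum (x axis), from exon counts, gene-body counts, estimated transcript counts, exon counts with the GC trend removed, and exon counts without replicate 2 of siPFDN2 before serum. FAM114A1 lies below 0 throughout, MRC2 in siPFDN2 before serum moves from -0.57 to -1.19 without that library, and TMC8 before serum is below 0 in gene-body counts (-0.53) and above it in exon counts (0.41).

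Related genes were followed in lists named for the members. Of 4 genes of the mannose receptor family, MRC1 and LY75 were too low to be tested. PLA2R1, which encodes a phospholipase A2 receptor, had log2 fold changes of -0.65 (SE 0.19) in siPFDN2 and 0.42 (SE 0.19) in siPFDN5 before serum, and was not called. Of 16 genes of collagen uptake and pericellular proteolysis, MRC2 included, 13 were tested and 0 were called in either knockdown against siControl, where 0% to 0.00402% of all genes were. Their median in siPFDN2 was -0.08 before serum and -0.11 after it, against 0 and -0.01 over all genes. In the serum response PLAUR, the urokinase receptor with which MRC2 associates, and PLAU, which encodes urokinase, rose in each siRNA. In siControl the log2 fold changes were 2.28 (SE 0.17) for PLAUR and 1.69 (SE 0.13) for PLAU, with adjusted p of 3.78e-05 and 3.67e-05 by edgeR. MRC2 itself was not called in that comparison.

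FAM114A2, RAB2A and RAB2B, the relatives and partners of FAM114A1, were all tested and none was called. FAM114A2 had a log2 fold change of -0.26 (SE 0.24) in siPFDN2 before serum and 0.23 (SE 0.24) after it. All 10 genes of the TMC list were tested, and 0 were called in a knockdown against siControl. The zinc exporter gene SLC30A1, whose product forms a complex with TMC6 and TMC8, rose after serum in siPFDN2 by a log2 fold change of 3.24 (SE 0.38, adjusted p = 0.00101 by edgeR). It had 1.55 (SE 0.35, adjusted p = 0.0548) in siControl and 1.32 (SE 0.35, adjusted p = 0.0631) in siPFDN5, and the difference between siPFDN2 and siControl was not called (1.69, SE 0.49, adjusted p = 0.532). No other gene of that list was called in a serum response.

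The genes with the most similar course over the 12 libraries were taken by the root mean square difference of centred log2 CPM, which for all genes had a median of 0.547 for MRC2, 0.358 for FAM114A1 and 0.426 for TMC8. They were NEURL1B (0.183), ZCCHC24 (0.211) and L1CAM (0.223) for MRC2. For FAM114A1 they were PHTF1 (0.101), ABCC2 (0.107) and UBASH3B (0.109). For TMC8 they were RGL3 (0.0976), AF111169.1 (0.104) and VASH1-AS1 (0.111). With the GC trend removed NEURL1B stayed closest to MRC2 (0.176) and RGL3 to TMC8 (0.0941), while TRIM2 (0.0676) was closest to FAM114A1.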

How the data were processed

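The authors deposited fragment counts per gene over gene bodies and over exons, made with featureCounts 1.5.2 on Ensembl release 87 of GRCh38 with no strand option, per the file headers. A fragment over several genes was counted for each. The deposited files per sample hold estimated counts per transcript. Tools named in the submitters' processing notes include HISAT2 and kallisto 0.43. The count tables hold 6 further columns without a sample in the labels, and these were left out. Groups came from the sample titles.

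Exon counts went into edgeR 4.0.16 under R 4.3.3 (filterByExpr, TMM, 1 quasi-likelihood model of 6 group means on all 12 libraries), with Benjamini-Hochberg adjustment over 24889 genes, two-sided, at 0.05. SE values were derived from the fold change and the test statistic. DESeq2 1.42.0 was an alternative, with estimated counts rounded and summed per gene as another. The GC trend was a lowess curve per library (span 0.3) of log2 CPM on the GC content of the longest GENCODE 29 transcript, added to the model's offset. Counts outside exons are gene-body minus exon counts on the exon scale, with no test. Named genes are the members, their list genes, overlapping and adjacent genes a result turns on, and the 3 most similar genes. Fits were checked on simulated counts. The planned test of the members' serum response in siPFDN2 is not given, since those libraries chose them. The members and lists were chosen with earlier results of these data known. The serum response of 1 list gene is not reported here.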

Additional observations from a re-analysis of the deposited data

Results flagged for a closer look

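FAM114A1 was higher after serum in siPFDN2 and slightly lower in siControl and siPFDN5, with no overlap of the replicates within a siRNA. The nearest values before and after serum were 48.7 and 48.6 CPM in siControl, and 37.6 and 37.4 CPM in siPFDN5. Neither of these 2 responses was called by edgeR (adjusted p = 0.93 and 0.826). Its log2 ratio of mean exon CPM after against before serum was 0.29 in siPFDN2, -0.12 in siControl and -0.06 in siPFDN5. The difference was not tested, because the siPFDN2 values picked the gene, and in siControl the library values were 48.7 and 52.0 CPM before serum and 44.2 and 48.6 CPM after it. Outside exons TMC8 had a log2 ratio of 0.30 after serum in siPFDN2 and -0.66 in siControl, again with replicates on 1 side in each and without a test of the difference. How many other genes showed such patterns was not counted.

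Outside exons 2 genes lay above siControl in siPFDN5 before serum and below it after serum. The log2 ratio of the means was 0.45 before and -1.15 after serum for MRC2, and 0.22 and -1.63 for FAM114A1. The share of counts outside exons over all tested genes was also lower in siPFDN5 after serum than before it. The differences between the serum states were not tested.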

How the results depend on the processing

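Replicate 2 of siPFDN2 before serum, through its distance from replicate 1, set much of the shared spread. With the GC trend removed FAM114A1 in siPFDN5 (-0.42 before and -0.36 after serum), MRC2 in siPFDN5 after serum (-0.40) and the response of MRC2 in siPFDN5 (-0.44) passed the test. They also did so in gene-body counts with the trend removed, chosen after seeing the data (-0.44, -0.32, -0.36 and -0.44, with 0.652% before and 13.5% after serum and 29.3% for the response of all genes called), and in fits of the 4 libraries compared (-0.40, -0.37, -0.50 and -0.50, with -0.45 for the response of TMC8 in siPFDN5; 15.2%, 20.4% and 45.9% of all genes called). Whether the replicate numbers pair the libraries could not be told. The difference between replicates correlated above 0.1 in 5 of 15 pairs of groups (-0.325 to 0.631), but the GC trends of the libraries were left in. The replicate block alone changed no member's call, and the replicate block with the GC trend removed called FAM114A1 (-0.42 and -0.36) and MRC2 (-0.39 and -0.44 for its response) as without it. The responses in siPFDN2, described without a test, were -0.75 (MRC2) and -0.92 (TMC8) without a filter and -0.86 (TMC8) by DESeq2.

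TMC8 turned with the table: in gene-body counts it was -0.53 in siPFDN2 and -0.65 in siPFDN5 before serum (-0.88 and -0.55 with the trend removed), and its response differed from siControl by 0.22 in siPFDN2 and 0.39 in siPFDN5 (0.65 and 0.31 with the trend removed). The alternative adds the counts outside exons. Its response in siPFDN2 was -0.26 in gene-body counts and 0.23 with the trend also removed, where the cause was not tested. With library size only, the response of FAM114A1 in siPFDN5 differed from siControl by -0.06. That scaling moved the median of all genes in this difference to -0.105, to which the value stands higher.

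Leaving out 1 library at a time gave -0.47 to -0.37 (before) and -0.42 to -0.27 (after serum) for FAM114A1 and -0.60 to -0.32 (after serum) for MRC2 in siPFDN5, and -0.06 to 0.18 for TMC8 before serum. Responses in siPFDN2 were -1.10 to -0.07 (MRC2), 0.15 to 0.45 (FAM114A1) and -1.28 to -0.24 (TMC8); each far end, without replicate 1 of siPFDN2 before serum, rests on the library that stood apart, and 54.7% of all genes were called in that fit. Other responses were -0.56 to -0.40 (MRC2) and -0.61 to -0.28 (TMC8) in siPFDN5, -0.25 to 0.04 for TMC8 in siControl, and 0.00 to 0.15 for FAM114A1 in siPFDN5 minus siControl. A group left with 1 library is assumed to vary like the others. Genes called for siPFDN5 against siControl ranged from 0 to 3462 before and 0 to 6926 after serum over all settings; serum responses counted 529, 630 and 1050 genes, and 1665, 2259 and 5512 with the GC trend removed. Over whole longest transcripts 0.669% of genes held the 8-base siPFDN2 match. Depth limits TMC8 most, with 190 to 781 exon counts a library.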
